A study of Mus musculus with 4 samples.

Results

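Divergent gene pairs lie head to head on opposite strands and overlap. They were read here from the exon coordinates of the deposited gene tables of mouse T-helper 2 cells. A pair was kept when both genes lay on an autosome and shared at least 50 exon bases, and when the minus-strand gene started and ended before the plus-strand gene started and ended. Each gene could belong to 1 such pair. The rule found 1259 pairs, or 2518 of the 50600 genes in the tables, and used no count. A further 78 of 1337 autosomal head-to-head pairs were left out because a gene belonged to several pairs, and 22 pairs were not autosomal.

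The study held 4 RNA-seq libraries of primary T-helper 2 cells of the C57BL/6NJ mouse strain, biological replicates 1 to 4 of 1 group, with no control and no other cell type. Sex was not collected and age is unknown in the labels, a differentiation protocol for CD4 T cells is linked, and paths in the file headers name 24 hours, which the labels do not. All libraries carry one donor record and nothing says that they came from separate mice or cultures, so that the p-values speak only of the variation among these 4 libraries, and part of it may be technical. The one comparison that the design allows is within a library, between the genes of a pair and between the pairs and the other genes.

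Many mammalian promoters are bidirectional: transcription starts in both directions from neighbouring sites in one open stretch of DNA, which is often rich in CpG. The genes of such a pair can both code for proteins, or one can code for a protein and the other for a long noncoding RNA named as antisense to it. Known examples hold genes of DNA repair, of mitochondria and of other functions that all cells need. Where the annotated first exons reach past each other, part of each transcript is complementary to part of the other. An aligned fragment from such bases is given to one gene only by its strand.

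The head-to-head layout can be seen in the promoter windows of pairs on which the results turn, 250 bases before to 50 bases after the RefSeq start of 1 gene, on build GRCm38.p6. The windows are printed 5′ to 3′ on the strand of the named gene, and capitals mark bases that lie in exons of both genes in the counted annotation. The pairs were taken from those with most counts and from those in which both genes were well counted. The Mettl23 window is chr11:116843265-116843564 on the plus strand, the Cdkl2 window is chr5:92042993-92043292 on the minus strand, the Gabpa window is chr16:84834874-84835173 on the plus strand, the Alkbh1 window is chr12:87443790-87444089 on the minus strand and the Smg6 window is chr11:74925604-74925903 on the plus strand.
Mettl23: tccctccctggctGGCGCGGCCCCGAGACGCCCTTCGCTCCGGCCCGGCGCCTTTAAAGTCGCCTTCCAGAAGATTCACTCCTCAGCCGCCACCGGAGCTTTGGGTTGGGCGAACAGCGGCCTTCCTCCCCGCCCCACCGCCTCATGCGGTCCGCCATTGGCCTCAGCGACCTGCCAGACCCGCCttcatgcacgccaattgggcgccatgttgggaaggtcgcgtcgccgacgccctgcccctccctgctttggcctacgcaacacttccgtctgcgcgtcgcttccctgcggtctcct
Cdkl2: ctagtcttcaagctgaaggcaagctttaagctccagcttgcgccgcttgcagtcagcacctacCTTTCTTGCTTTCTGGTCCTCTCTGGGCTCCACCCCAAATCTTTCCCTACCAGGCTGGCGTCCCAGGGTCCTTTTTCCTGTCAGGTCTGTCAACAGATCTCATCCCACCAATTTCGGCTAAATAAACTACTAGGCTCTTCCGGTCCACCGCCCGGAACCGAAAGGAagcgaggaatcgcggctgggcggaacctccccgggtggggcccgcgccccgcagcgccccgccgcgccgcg
Gabpa: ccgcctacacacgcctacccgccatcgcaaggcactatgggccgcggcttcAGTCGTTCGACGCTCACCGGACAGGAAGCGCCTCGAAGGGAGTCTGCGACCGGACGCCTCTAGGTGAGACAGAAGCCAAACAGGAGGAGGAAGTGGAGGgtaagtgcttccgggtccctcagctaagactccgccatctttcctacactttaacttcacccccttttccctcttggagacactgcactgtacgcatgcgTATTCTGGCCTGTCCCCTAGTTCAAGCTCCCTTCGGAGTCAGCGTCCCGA
Alkbh1: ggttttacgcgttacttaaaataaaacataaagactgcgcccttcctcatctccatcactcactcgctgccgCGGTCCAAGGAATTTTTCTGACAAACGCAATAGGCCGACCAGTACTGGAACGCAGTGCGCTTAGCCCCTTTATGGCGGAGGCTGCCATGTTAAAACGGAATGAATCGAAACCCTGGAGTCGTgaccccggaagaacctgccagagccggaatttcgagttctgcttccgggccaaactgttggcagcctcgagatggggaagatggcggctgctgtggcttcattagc
Smg6: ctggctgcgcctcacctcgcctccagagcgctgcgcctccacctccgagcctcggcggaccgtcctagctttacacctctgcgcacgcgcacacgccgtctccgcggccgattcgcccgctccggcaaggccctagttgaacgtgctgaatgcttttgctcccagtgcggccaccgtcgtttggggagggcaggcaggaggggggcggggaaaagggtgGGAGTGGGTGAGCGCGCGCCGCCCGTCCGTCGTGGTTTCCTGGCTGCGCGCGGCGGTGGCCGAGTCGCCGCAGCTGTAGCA

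In the Mettl23 window 172 bases were shared with exons of Jmjd6, which are all the bases that this pair shares, and they lie before the RefSeq start of Mettl23. The Alkbh1 window likewise held all 122 bases that Alkbh1 shares with Slirp. The Cdkl2 window held 166 shared bases, and the Smg6 window held 81 of the 126 bases shared with Srr. In the Gabpa window the 149 shared bases stood in 2 separate stretches. The windows were 53.0% to 70.7% G and C and held 20 to 38 CpG.

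The annotated overlap was short in most pairs but not in all. The pairs shared a median of 211 exon bases (quartiles 123 and 385, range 50 to 6222), and a median of 7.65% of a gene's exon length was shared. The stretch of genome covered by both genes had a median of 599 bases, and it was at most 1000 bases in 883 pairs (70.1%) but reached 93089. The first exons of both genes shared bases with each other in 923 pairs (73.3%). In the others the 5′ overlap ran through later exons or alternative starts, so that the name 5′ overlap fits the first exons only in part. Pairs just inside the limit, with 50 to 59 shared bases, numbered 48 and had a median summed count of 13, while the 25 head-to-head pairs just outside, with 40 to 49, had a median of 25.

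By gene class, 1566 members were protein-coding, 868 were noncoding and 84 were of another or unknown class. The noncoding members included 453 annotated as antisense, 152 as lincRNA and 35 as bidirectional promoter lncRNA. A coding gene faced a noncoding gene in 735 pairs, 2 coding genes faced each other in 393, and 53 pairs were noncoding on both sides. Chromosome 7 held most pairs (142) and chromosome 19 fewest (25). Members had longer exons than genes in general, with a median of 3045.5 bases against 1303.5. Many members also met a further gene: 476 shared exon bases with a further gene on the other strand and 143 with a gene on their own strand, which left 767 pairs in which neither gene shared bases with any other gene.

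The libraries held 1804217 to 2711948 counts in 12398 to 14083 genes. T cell markers were counted at low level, with 7 of 10 above 3 counts in each library and none at 0, and Cd4 had 56, 67, 71 and 20 counts in replicates 1 to 4. Among Th2 markers 5 of 8 were above 3 counts in each library, with Il4 at 24, 21, 25 and 26 and Il1rl1 at 0. B cell, myeloid, CD8 and NK, and erythroid lists had 4 of 5, 3 of 5, 3 of 4 and 3 of 4 genes at 0 in all libraries, with summed counts of 9 to 15, 999 to 1039, 3 to 4 and 31 to 39. The myeloid sum lay on 2 genes with over 3 counts in each library, Csf1r and Cd68. It was above that of the Th2 list (262 to 497) and under that of the T cell list (1131 to 1530). Foxp3 of the Treg list had 601 to 730 counts and shares exon bases with genes on the other strand, and of the 4 Th1 markers, with 88 to 117 counts in sum, Tbx21 and Cxcr3 were at 0. None of these markers lies in a divergent pair. Exon bases are shared with the other strand by 2 T cell, 3 Th2, 1 Th1, 2 Treg, 1 B cell, 1 myeloid and 1 erythroid marker. The sums of the lists are therefore not read as a comparison of cell types. The tables were counted with strand setting 1, and the strand that the library kit marks is not given in the sources used here. Actb, which shares no bases with the other strand, had 276, 324, 299 and 48 counts, while mt-Nd6, on the light strand of the mitochondrial genome, had 35801 to 49430 against 4207 to 7040 for the 12 heavy-strand coding genes together. Counts are therefore given as counts on the strand that was counted and are not read as the expression of a gene. If the kit marks the strand opposite to this setting, fragments of one gene of a pair would be counted for the gene facing it in the shared bases, and the direction within pairs could not be read as one between the genes. The part of the strand setting in the results that follow was not tested.

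Divergent members held 8.19% of the exon length of all genes and 20.9% ± 3.08 (SD, n = 4) of the counts. The share was 22.2% in replicate 1, 22.6% in replicate 2, 16.3% in replicate 3 and 22.5% in replicate 4. Replicate 3 was lowest, and there CT010467.1, an annotated gene that is no member, took 28.6% of the counts, against 1.02%, 1.14% and 14.4% in replicates 1, 2 and 4. With CT010467.1 left out of the totals, a setting chosen after the data had been seen, the share was 22.4%, 22.9%, 22.9% and 26.3%. On the full totals, the 767 pairs that share bases with no other gene held a mean of 7.39% of the counts. The exon length of these pairs alone is not given here. Genes of convergent pairs, which share 3′ exon bases tail to tail by the same rules, held 42.4% ± 6.90 of the counts on 8.94% of the exon length, and nested pairs, in which one gene lies inside the other, held 24.3% ± 3.60 on 7.92%. The limit of 1 pair per gene holds within an orientation only. A gene can thus belong to pairs of several orientations, and these shares can count the same genes more than once. The difference between orientations was not tested.

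A count in at least 1 library was found for 1880 members (74.7%, against 34.0% of all genes) and in each library for 1469, while 638 members had none. For those 1880, the level was tested against 1 TPM, a unit in which counts per exon base sum to one fixed total per library, with limma. It was above 1 TPM for 1087 (57.8%), where the background over all 17203 genes with a count was 32.1%, and below 1 TPM for 310, where the background was 26.6%. Of the noncoding members 401 of 570 (70.4%) were above, with a median of 19.1 TPM, and of the coding members 657 of 1270 (51.7%), with a median of 2.42 TPM. Among all noncoding genes with a count 50.2% were above, and among all coding genes 28.7%. The count below 1 TPM rested on very low counts: it was 0 among genes with a mean count of at least 10, and 151 without replicate 3, 197 without replicate 4, 198 without replicate 2 and 199 without replicate 1.

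Counts within a pair lay mainly on one strand. Of the 1259 pairs, 796 had a mean summed count of at least 10 and were tested, 463 were below that, and 228 of these had no count in either gene. The counts per exon base of the genes of a pair were compared within libraries with edgeR's quasi-likelihood test, pairs serving as features, and with Benjamini-Hochberg adjustment over all 2673 opposite-strand pairs tested. They differed in 726 of 796 divergent pairs (91.2%), close to the background of 92.8% over all tested pairs. The higher gene was on the plus strand in 365 (background 46.9%) and on the minus strand in 361 (background 45.9%).

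The higher gene held a median of 95.1% of a pair's counts, and at least 90% in 525 of the 796 pairs (66.0%). Over all tested opposite-strand pairs these values were 96.3% and 68.3%. The median difference between the genes, per exon base and regardless of direction, was 4.89 on the log2 scale, beside 4.37 for convergent and 6.80 for nested pairs. The higher gene was the same in all 4 libraries in 738 pairs (92.7%), beside 95.6% of convergent and 95.2% of nested pairs. Of the 58 divergent pairs in which it was not, 54 did not pass the test, and 30 had a mean count of at least 10 in both genes. The lower gene reached a mean count of 10 in 368 tested pairs and of 50 in 103.

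Pairs of a coding and a noncoding gene had the largest median difference by class, at 5.84 on the log2 scale regardless of direction, beside 3.41 for coding pairs and 3.75 for the 15 tested noncoding pairs. The noncoding gene was higher in 343 of 413 tested pairs, where the background over all coding and noncoding pairs was 85.8%, and the coding gene was higher in 40, where the background was 9.05%. The remaining 30 did not pass the test. Like all directions within pairs here, this one holds for the strand as counted. Noncoding genes had a median count of 146.25 and coding genes of 9.25. Of the counts of these pairs 92.2% lay on the noncoding gene, beside 91.1% over all tested coding and noncoding pairs. The median difference, noncoding minus coding, was 5.40, 5.35, 5.63 and 6.41 on the log2 scale in replicates 1 to 4, or 5.70 ± 0.49 (SD, n = 4). It was 5.76 ± 0.45 with genes at 0 in all libraries placed at 3 counts, and 4.43 when exon length was not divided out. The noncoding gene was ahead in 353, 357, 356 and 366 of the 413 pairs in the 4 libraries. Without pairs that share bases with any other gene, 222 remained, of which 190 had the noncoding gene higher and 14 the coding gene, with a median of 5.79 ± 0.54.

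**Figure D1:**
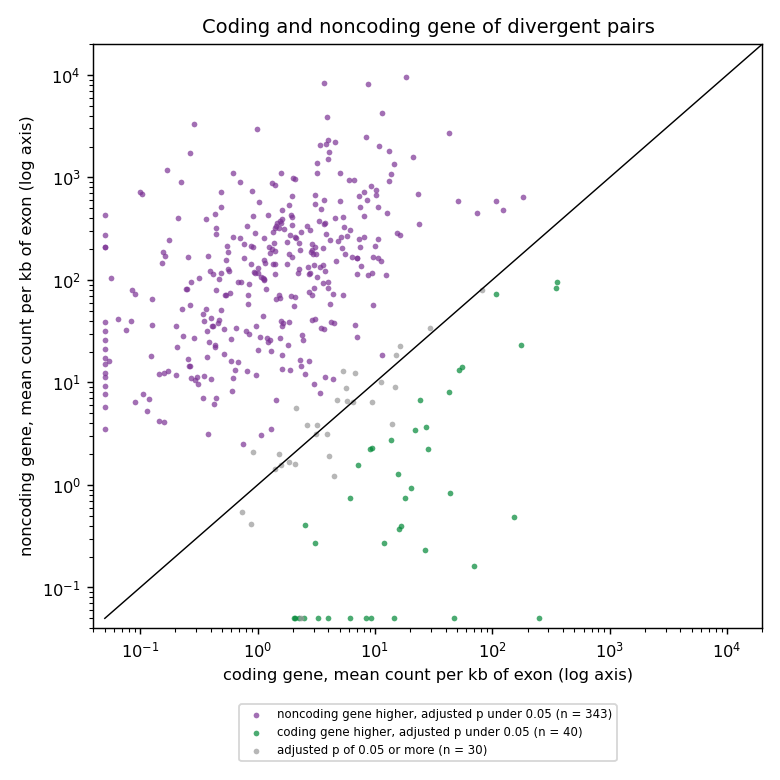
Mean count per kilobase of exon of the coding gene (horizontal log axis) and the noncoding gene (vertical log axis) of the 413 tested divergent coding and noncoding pairs, with genes at 0 drawn at the left or lower edge and the line of equal level. Colours give the direction called by edgeR at an adjusted p under 0.05, with 343 pairs above the line, 40 below it and 30 not called.

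The same direction held in the other orientations, with larger differences. In convergent pairs the median difference of noncoding minus coding was 6.78 ± 0.31 over 301 pairs, and in nested pairs 7.16 ± 0.52 over 488. The divergent median was the smallest of the 3 in each library: 6.41 in replicate 4, for example, beside 7.22 and 7.92. The difference between orientations was not tested.

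**Figure D2:**
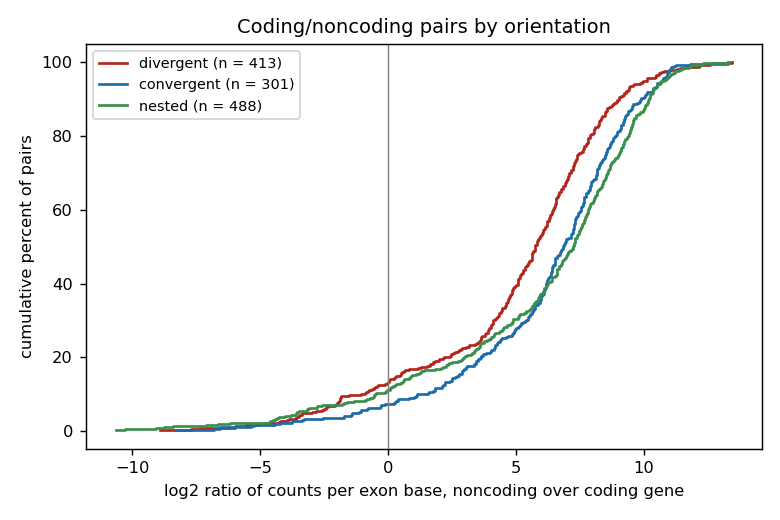
Cumulative percent of tested coding and noncoding pairs (vertical axis) by the log2 ratio of counts per exon base of noncoding over coding gene (horizontal axis), mean of 4 libraries, for 413 divergent, 301 convergent and 488 nested pairs. The divergent curve lies to the left of the other 2 over most of the range above 4, and the grey line marks equal counts.

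The 10 pairs with the highest summed count showed how far apart the genes of a pair can lie. Jmjd6 (chr11:116837432-116843449), a JmjC-domain oxygenase, faces Mettl23 (chr11:116843278-116854263), a methyltransferase. Jmjd6 had 15, 24, 23 and 12 counts in replicates 1 to 4. Mettl23 had 12500, 12337, 12443 and 11931. The libraries did not overlap, and the difference per exon base was 10.20 ± 0.45 on the log2 scale (SD, n = 4; adjusted p = 1.47e-07 by edgeR with Benjamini-Hochberg). Mettl23 shares a further 460 exon bases with Srsf2, on the other strand.

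Srsf2 (chr11:116849901-116853094), an SR protein of splicing, is itself the minus-strand gene of the next pair on chromosome 11, with the transporter-family gene Mfsd11 (chr11:116852440-116875635). Srsf2 had 123, 102, 122 and 86 counts, and Mfsd11 had 5584, 6650, 6730 and 16666. Mfsd11 was highest in replicate 4, in which Srsf2 was lowest, and the difference was 4.96 ± 0.94 on the log2 scale. In both pairs of this neighbourhood the plus-strand gene was the higher one.

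Arhgdib (chr6:136923655-136941899) faces Pde6h (chr6:136923832-136968865), an inhibitory subunit of the cone phosphodiesterase. Arhgdib had 78, 69, 72 and 11 counts, and Pde6h had 11101, 11100, 11015 and 9062. Pde6h was far higher in every library, with a difference of 5.63 ± 1.19 on the log2 scale. It is known to act in cone photoreceptors, and whether these counts come from its own transcripts was not tested. These genes share 136 exon bases over a stretch of 18068 bases, and neither shares bases with a further gene. Their first exons share no bases with each other, and the annotated start of Pde6h lies near the 3′ end of Arhgdib.

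Ftl1 (chr7:45457944-45459884) encodes the ferritin light chain and faces the noncoding Gm10252 (chr7:45459469-45460300). Ftl1 had 13, 14, 18 and 2 counts, and Gm10252 had 6235, 6808, 7594 and 6605. The noncoding gene was higher by 10.13 ± 1.29 on the log2 scale, with the widest gap in replicate 4.

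Pcbp2, which encodes an RNA-binding protein for poly(C), had 120, 147, 132 and 93 counts, and its noncoding partner Gm26518 had 8586, 9093, 9111 and 8728. Tap2, a subunit of the peptide transporter of antigen presentation, had 15, 18, 13 and 10, and the noncoding Gm20496 had 5336, 5394, 5797 and 5381. Cdkl2, a cyclin-dependent-kinase-like kinase, had 2, 0, 2 and 3, and the noncoding Gm26582 had 10537, 10011, 11780 and 9309. In each of these pairs the noncoding gene was higher in every library, with differences of 6.00 ± 0.25, 11.10 ± 0.36 and 13.43 ± 1.26 on the log2 scale. Gm26582 shares 2050 exon bases with G3bp2, many times the 166 it shares with Cdkl2, and Gm20496 shares 186 with Psmb8. The lower genes can also share bases elsewhere: Tap2 shares 533 with Gm15821, and Pcbp2 shares 1571 with Map3k12.

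Coding genes could also lead by such margins. Plppr3, a phospholipid phosphatase-related gene known from neurons, had 6725, 7324, 6731 and 8099 counts, and Prtn3, the proteinase 3 of neutrophil granules, was at 0 in all 4 libraries. Plppr3 was thus at least 3827-fold higher per exon base, with 3 counts over the 4 libraries as the floor for Prtn3, a limit that covers counting error only. Plppr3 shares 251 exon bases with Ptbp1, a splicing repressor on the other strand. Srr, the serine racemase, had 6599, 6342, 6498 and 5931 counts against 28, 28, 40 and 26 of Smg6, an endonuclease of nonsense-mediated decay. The difference was 8.59 ± 0.25 on the log2 scale, and Srr shares 1240 exon bases with Tsr1 on the other strand.

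Some members also shared bases with a further gene on the other strand. Exactly 1 gene of the pair did so in 295 tested pairs, of which 272 passed the test. That gene was the higher one in 195 pairs. The background was 53.7% over the 1043 tested opposite-strand pairs of any layout with 1 such gene. In the divergent pairs the other gene was higher in 77. The median difference, gene with the further overlap minus the other, was 3.24 on the log2 scale. Among coding pairs the split was 80 against 33 of 124, and among coding and noncoding pairs 105 against 38 of 153. The background was not split by class or given for the other gene. Whether these splits are particular to divergent pairs was not tested.

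Counts were also set beside the length of the overlap. Over all pairs the median summed count was 15.5 with 50 to 99 shared bases, 49.25 with 100 to 199, 83.75 with 200 to 399 and 73.75 with 400 or more. Tested pairs, which were taken by this same count, had medians of 82.9, 156, 189 and 349 in these bins. Per 100 shared bases their medians were 104, 103, 71.0 and 53.5, and in pairs that share bases with no other gene 68.0, 80.6, 61.6 and 46.5. The share of pairs with enough counts to be tested was 55.8%, 66.5%, 67.1% and 59.5% in the same order, and the median difference between the genes was 4.55, 4.73, 4.96 and 5.51 on the log2 scale. Exon length and class of the genes may differ between these bins, and their part was not tested.

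The genes of coding pairs differed in 298 of 333 tested pairs (89.5%), beside a background of 90.8%. A median of 92.4% of the counts lay on the higher gene, beside 92.0% over all tested coding pairs. The pair with the highest count in its lower gene was Alkbh1 and Slirp on chromosome 12. Alkbh1, a nucleic acid demethylase, had 1070, 1028, 1115 and 981 counts, and Slirp, which stabilises mitochondrial transcripts, had 3809, 3692, 4172 and 3333. Slirp was higher by 2.92 ± 0.06 on the log2 scale, with no overlap between the libraries of the genes, and it shares 945 exon bases with Snw1 on the other strand.

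Erp29, a chaperone of the endoplasmic reticulum, had 2765, 2590, 2674 and 2193 counts and Tmem116 had 861, 980, 897 and 1086. Per exon base they were close, with Erp29 ahead by 0.14 ± 0.29 on the log2 scale (adjusted p = 0.477 by edgeR with Benjamini-Hochberg). Erp29 was ahead in replicates 1 to 3 and Tmem116 in replicate 4, and without replicate 4 the plus-strand Tmem116 minus Erp29 was -0.27 on the log2 scale and passed the test.

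Atp5j, a subunit of the ATP synthase, faces Gabpa, an ETS factor of nuclear genes for mitochondria. Atp5j had 456, 452, 474 and 585 counts and Gabpa had 726, 885, 946 and 1487. Gabpa was ahead by 0.13 ± 0.28 on the log2 scale (adjusted p = 0.479 by edgeR with Benjamini-Hochberg), with Atp5j ahead in replicate 1. In the remaining pairs of this group the test was passed per exon base. Trmt112, an activator of methyltransferases, was higher than the peroxiredoxin Prdx5 by 1.23 ± 0.13, 1700123O20Rik was higher than Acin1, a protein of the exon junction, by 2.40 ± 0.23, and the integrin-linked kinase Ilk was higher than Rrp8, an rRNA methyltransferase, by 1.64 ± 0.25. For Acin1 the difference rests on exon length: its counts were 400, 381, 488 and 353 against 437, 425, 489 and 514 of 1700123O20Rik, and without dividing by length the difference was 0.21 on the log2 scale and did not pass the test.

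**Figure D3:**
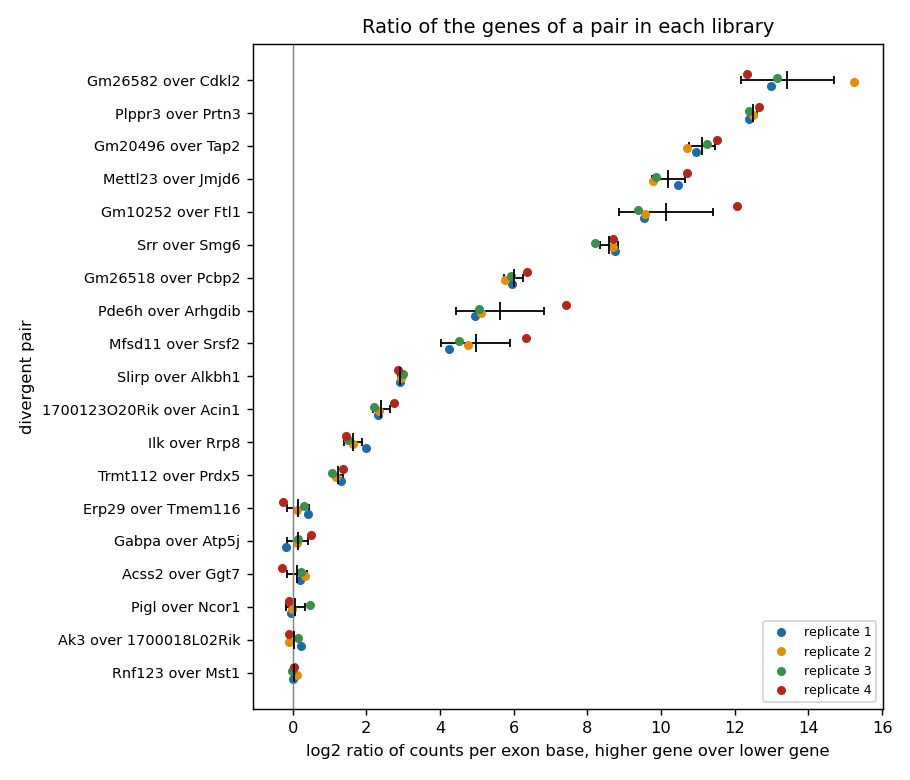
Log2 ratio of counts per exon base of the higher over the lower gene (horizontal axis) in each of 4 libraries for the pairs with most counts, the coding pairs with the highest lower gene and the most equal pairs, with black ticks and bars for the mean and SD. Ratios run from 13.43 for Gm26582 over Cdkl2 to 0.03 for Rnf123 over Mst1, and replicate 4 lies to the right for Pde6h over Arhgdib and Gm10252 over Ftl1.

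Of the 796 tested pairs 70 did not pass the test, beside 192 of the 2673 opposite-strand pairs of any layout. The higher gene held under 75% of the counts in 120 and 409 pairs, respectively. The pairs named next were taken as the most equal per exon base. Among pairs with a mean count of at least 50 in both genes, Rnf123, a ubiquitin ligase, and Mst1, a growth factor, had 301, 266, 291 and 330 against 100, 82, 98 and 108 counts, which per exon base differed by 0.03 ± 0.06 on the log2 scale. Ak3, an adenylate kinase, had 263, 229, 240 and 291 counts and the noncoding 1700018L02Rik had 180, 195, 173 and 249, a difference of 0.04 ± 0.16. Ncor1, a nuclear receptor corepressor, had 332, 319, 339 and 316 and Pigl, an enzyme of GPI anchor synthesis, had 56, 55, 82 and 52, a difference of 0.07 ± 0.26. The genes of these pairs overlapped in level between libraries, and none passed the test. The equality is one per exon base: without dividing by exon length the plus gene minus the minus gene was -1.62 for Rnf123 and Mst1, -1.42 for Erp29 and Tmem116, 1.00 for Atp5j and Gabpa and 1.76 for Ggt7 and Acss2, all past the threshold, and turned to -2.43 for Ncor1 and Pigl.

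The 40 pairs in which the coding gene was higher included few with many counts. Eef2kmt, a methyltransferase of elongation factor 2, had 436, 440, 490 and 502 counts and the noncoding Gm15983 had 103, 93, 117 and 131. Eef2kmt was higher in every library, by 2.94 ± 0.12 on the log2 scale, and shares 472 exon bases with Alg1 on the other strand. The next examples were chosen after their values had been seen. Echdc1 had 354 counts per kilobase of exon against 94.4 of Gm46218, Fuz had 347 against 84.1 of D7Bwg0826e, Dnase1 had 154 against 0.489 of Gm15879, and Pcbp1 had 54.8 against 14.3 of 1600020E01Rik.

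Among the 6 tested pairs with most shared bases, 5 had genes that differed past the threshold. Gm26786 and Zfp90 share 6222 bases, nearly all of the exon length of Gm26786, and Gm26786 had 176, 199, 215 and 202 counts while Zfp90, a zinc finger gene, had 0, 1, 0 and 0. The ratio per exon base was 992 (95% interval 178 to 39248, counting error only). Kctd18 had 2219, 2114, 2531 and 1842 counts and Sgo2a, a shugoshin that protects centromeric cohesin, had 8, 7, 14 and 1, with 2455 shared bases. Eftud2, a GTPase of the spliceosome, had 37, 38, 36 and 13 counts against 2125, 2252, 2109 and 2289 of the noncoding Gm26668. Of the 6 pairs, the one that did not pass the test was A730089K16Rik and C530008M17Rik, with 0, 0, 2 and 2 counts against 14, 3, 15 and 11 (adjusted p = 0.228 by edgeR with Benjamini-Hochberg). Without dividing by length this pair passed it, at 3.31 on the log2 scale.

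Functional lists chosen by gene name give the direction within pairs for genes of one kind. For reference, over the 3581 coding genes of all tested opposite-strand pairs the partner was higher for 61.8% and the gene itself for 30.4%. No list was tested against that or against another list. The T cell list had 15 tested pairs with 1 listed gene, and the partner was higher in 13 and the listed gene in 2, while over all 59 tested opposite-strand pairs with a gene of this list the partner was higher in 71.2%. Lef1, a transcription factor of naive and early T cells, had 114, 123, 147 and 196 counts and the noncoding Gm43352 opposite it had 707, 806, 918 and 933. Il6ra, the interleukin-6 receptor chain, had 97, 129, 136 and 73 against 382, 465, 417 and 782 of Gm42809. Both noncoding genes were higher in every library, by 4.08 ± 0.21 and 5.14 ± 0.81 on the log2 scale. Cd160, a receptor of cytotoxic lymphocytes, had 15, 5, 15 and 14 counts against 459, 491, 460 and 446 of Pdzk1. Tox4, a high-mobility-group protein, was a listed gene that led, with 789, 746, 805 and 724 against 38, 64, 35 and 64 of Rab2b. Tox4 shares 1106 exon bases with Mettl3 on the other strand, and Rab2b shares 2469 with Gm43766.

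Zinc finger factors and chromatin genes mostly had the higher partner too, as they did in opposite-strand pairs of any layout (90% and 85.4%). In divergent pairs the partner was higher than the zinc finger gene in 18 of 23 pairs and the listed gene in 2, and for chromatin genes the split was 8 against 2 of 12. The median difference of listed gene minus partner was -5.03 and -3.85 on the log2 scale. Eed, a subunit of Polycomb repressive complex 2, had 45, 49, 58 and 22 counts, and E230029C05Rik had 760, 758, 916 and 1212. Prmt6, an arginine methyltransferase, had 23, 54, 52 and 40, and C130013H08Rik had 627, 750, 692 and 1119. Zfp651 had 0, 0, 1 and 0 against 2422, 2296, 2216 and 2140 of the noncoding E530011L22Rik, which shares 2182 bases with Nktr. Zfp276 was one of the listed genes that led, with 755, 825, 743 and 878 against 18, 25, 30 and 21 of Vps9d1. Zfp276 shares 920 exon bases with Fanca on the other strand.

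Genes of mitochondria and of the ubiquitin system were near the share for all coding genes, here and over all opposite-strand pairs (60.3% and 62.8%). The partner led in 22 of 32 pairs with a mitochondrial gene and the mitochondrial gene in 8, with a median of -3.45 on the log2 scale, and for the ubiquitin list the split was 21 against 6 of 30 with a median of -4.45. Tomm6, of the outer membrane import complex, had 16, 19, 15 and 12 counts against 3123, 3131, 3266 and 3187 of its noncoding partner Tomm6os. Mrpl18, a mitochondrial ribosomal protein, had 25, 33, 26 and 19 against 2640, 2822, 2948 and 3244 of Tcp1, a chaperonin subunit. Mrpl47 led its pair with 2503, 2513, 2667 and 2531 against 10, 9, 11 and 0 of Ndufb5, a complex I subunit on the same list. Mrpl47 shares a further 452 exon bases with Actl6a on the other strand. Ube2d3, a ubiquitin-conjugating enzyme, had 30, 59, 43 and 7 against 1037, 1219, 1169 and 2136 of 4930539J05Rik, and Usp38, a deubiquitinase, had 12, 10, 11 and 4 against 1243, 1283, 1376 and 1647 of Gm9725. Rnf146, a ubiquitin ligase, led instead, with 1993, 1937, 2287 and 1721 counts while Gm30698 was at 0, so that it was at least 1899-fold higher per exon base. Rnf146 shares 3129 exon bases with Echdc1 on the other strand.

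RNA processing, DNA repair and cell cycle genes were likewise near that share, and over all opposite-strand pairs their partners were higher in 70.1%, 62.8% and 60.4%. In divergent pairs the partner was higher than the listed gene in 14 against 8 of 24, 7 against 4 of 13 and 8 against 5 of 14 pairs. Srsf1, an SR protein of splicing, had 85, 144, 127 and 64 counts against 3179, 3588, 3726 and 6191 of the noncoding Gm11508. Snrpf, a core protein of spliceosomal particles, had 7, 14, 17 and 7 against 3292, 3724, 3765 and 2616 of 4933408J17Rik. Wdr83 led with 1847, 1853, 1903 and 1642 against 44, 35, 26 and 28 of Wdr83os. Wdr83 shares 128 exon bases with Dhps on the other strand. Mcm7, of the replicative helicase, had 125, 149, 178 and 127 against 1683, 1758, 1850 and 1762 of Ap4m1, and Mre11a, a nuclease of double-strand break repair, had 10, 18, 7 and 5 against 362, 328, 371 and 299 of Ankrd49. Cenpo, a kinetochore protein, led Ptrhd1 with 785, 856, 834 and 854 against 10, 13, 33 and 9. Cenpo shares 1380 exon bases with Adcy3 on the other strand.

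For translation genes the split was the other way, and over all opposite-strand pairs the partner was higher in 46%. The listed gene was higher in 9 of 17 pairs and the partner in 3, with a median of 1.54 on the log2 scale. Rps25, a ribosomal protein of the small subunit, had 750, 817, 906 and 752 counts against 83, 89, 85 and 104 of Trappc4. Rps25 shares 206 exon bases with Ccdc84 on the other strand. Rpl15, of the large subunit, was lower than its partner, with 92, 87, 100 and 95 against 2347, 2365, 2567 and 2301 of Nkiras1. A list of markers of other cell types held 3 pairs, none with enough counts.

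Replicate 4 differed most within pairs. Among the 368 pairs whose lower gene had a mean count of at least 10, replicate 4 had the most unequal ratio in 219 (59.5%), against 53, 52 and 44 for replicates 1, 2 and 3. The median difference there was 4.16 on the log2 scale, beside 3.64, 3.55 and 3.66. In coding and noncoding pairs the lower counts of replicate 4 lay on coding genes. Over the 413 tested pairs of this kind the noncoding gene was higher in 343, so that class and level cannot be told apart here. Genes with at least 10 counts in each other library were compared with the mean of the other libraries, in log2 counts per total (log2 CPM). Of 173 coding genes of coding and noncoding pairs, 52 (30.1%) were lower in replicate 4 by more than 1. Of 344 noncoding genes of these pairs 0 were lower and 27 were higher by that much. In replicates 1, 2 and 3, 1 of 139, 2 of 138 and 8 of 135 coding genes were lower, and 6, 0 and 13 noncoding genes. The filter leaves out the library that is judged, so a gene low there can still enter, and the sets differ in size. Over all members 92 of 1067 (8.62%) were lower in replicate 4 and 56 higher. Among autosomal genes that share no bases with the other strand 1130 of 2041 (55.4%) were lower in replicate 4. In replicates 1, 2 and 3 these were 20 of 1283, 20 of 1284 and 95 of 1267. Actb had its fewest counts in replicate 4 too, so that lower counts there were also seen outside the divergent pairs. Replicate 3 had medians of -0.35 and -0.46 in the coding and noncoding genes, beside its 28.6% of counts on CT010467.1. Whether RNA quality, depth or the cells differed in replicate 4 was not tested.

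**Figure D4:**
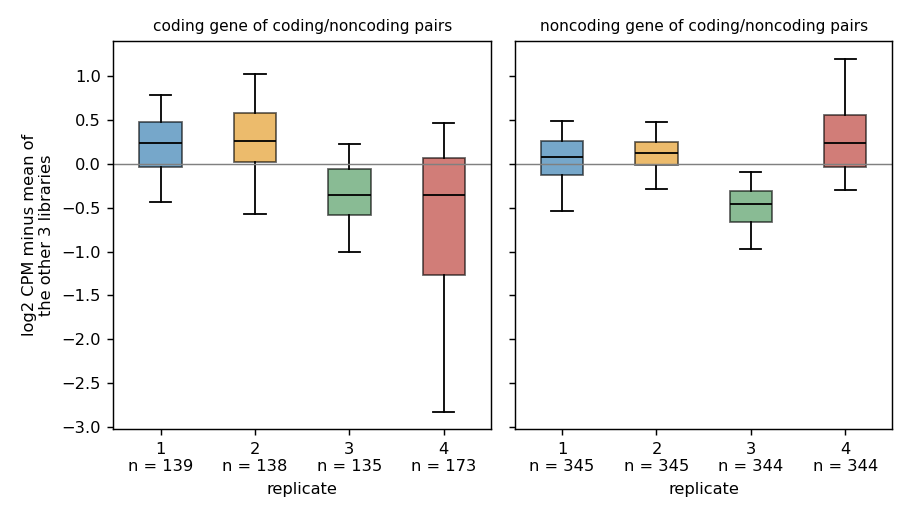
Log2 CPM of a gene in a replicate minus its mean in the other 3 libraries (vertical axis) for each replicate (horizontal axis, with the number of genes), in coding genes and noncoding genes of coding and noncoding divergent pairs, with boxes at the quartiles, lines at the medians and whiskers at the 5th and 95th percentiles. In replicate 4 the coding genes spread far downward, with a lower quartile of -1.27, while the noncoding genes do not.

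Single members that moved most in replicate 4 were picked after their values had been seen. Atp5o, an ATP synthase subunit, had 18, 26, 16 and 0 counts. Rps27a, which encodes ubiquitin fused to a ribosomal protein, had 64, 66, 47 and 4, while its partner Clhc1 stayed at 80, 74, 89 and 92. In the other direction Gm9887, opposite Arf6, had 414, 627, 532 and 4026, and Tmem189, opposite Cebpb, had 97, 88, 110 and 428. Ccdc107, opposite Rmrp, had 16, 14, 914 and 235, with replicates 3 and 4 apart from replicates 1 and 2.

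Promoter windows of members were rich in CpG. RefSeq windows were matched by symbol for 1574 members, and 1443 lay within 2000 bases of the gene start in the counted tables. Their median content was 60.7% G and C with 20 CpG in 300 bases, against 52.7% and 7 over all 32851 windows and 57.0% and 14 over windows of coding genes. In 431 pairs both genes had a window, and in 271 of these the RefSeq starts also overlapped head to head. In the other 160 they lay apart, so that the overlap there rests on the coordinates of the counted annotation. Which transcripts hold it was not examined. Windows of such a pair can cover the same bases, so they are not independent.

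Motifs were searched as exact letters on both strands, and a match is only a description of the letters. The ETS motif CCGGAAG was found in 17.8% of member windows and 20.5% of those of coding members, against 8.86% of all windows and 11.9% of windows of coding genes. In noncoding members it was found in 7.96%, under the share in all windows. The GC box GGGCGG was found in 58.6%, against 35.7% and 47.8%, and it occurs more often in sequence that is rich in G and C. The TATA box TATAAA was found in 7.97%, against 13.6% and 12.1%. The CCAAT box CCAAT was found in 36.2%, against 37.4% of all windows and 37.8% of windows of coding genes, and the YY1 motif in 1.59%, against 0.633% and 0.936%. The NRF1 motif, the CREB motif TGACGTCA and the E box CACGTG were found in 1.11%, 2.56% and 8.73%, against 0.971%, 1.79% and 7.15% of all windows and 1.38%, 2.32% and 8.03% of windows of coding genes. No test was made of these shares.

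**Figure D5:**
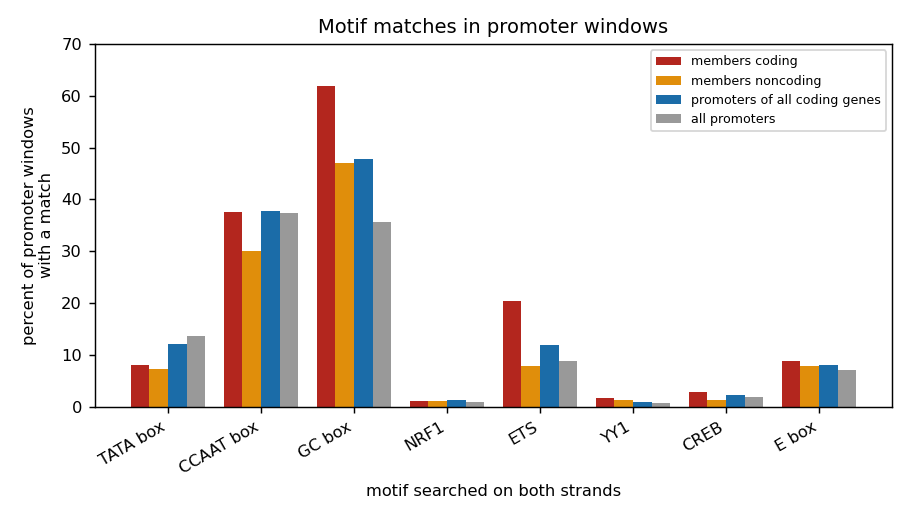
Percent of 300-base promoter windows (vertical axis) that hold each motif on either strand (horizontal axis), for coding members, noncoding members, all coding genes and all genes in the RefSeq table. Coding members stand above all coding genes for the ETS motif (20.5% against 11.9%) and the GC box (61.8% against 47.8%) and under them for the TATA box.

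The windows differed with whether a pair had enough counts to be tested. Members of tested pairs held the ETS motif in 23.7% of 1009 windows, members of other pairs in 4.15% of 434. TATA matches went the other way, with 6.54% against 11.3%, and the median number of CpG was 22 against 14. Class also differed between these sets: 333 of 393 coding pairs were tested, but 413 of 735 coding and noncoding pairs. Its part was not tested. Among the printed windows, those of Cdkl2, Gabpa and Alkbh1 hold the ETS letters. Alkbh1 also holds the YY1 letters after its start, and the Mettl23, Cdkl2 and Smg6 windows hold a GC box.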

How the data were processed

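RNA of 4 T-helper 2 libraries was measured by RNA-seq. The authors' deposited values are raw counts of fragments per gene. Per the file headers, featureCounts 1.4.6-p4 counted pairs with both ends aligned over exons of GENCODE M13, summed by gene, with strand setting 1. The labels name mm10. The aligner version is not given in the sources used here. The assay is labelled total RNA-seq, but the protocol linked for the libraries has poly(A) RNA in its name.

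Exons were merged per gene from the deposited coordinates, and shared bases were counted between strands. Symbols for 50376 of 50600 genes and classes came from GENCODE M21. A gene was noncoding if it had a lncRNA or TEC class there and was not protein-coding in RefSeq. Members, lists and tests were chosen with earlier results of these data known.

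The pair test used edgeR 4.0.16 (R 4.3.3): quasi-likelihood, library and strand as terms, offsets for TMM library size and exon length, a mean summed count of at least 10, and Benjamini-Hochberg adjustment over 2673 pairs at 0.05. Both genes of a pair are counted in the same library, so the library is the block, and replicates of different groups are not paired because there is 1 group. Levels used limma 3.58.1 on log2(TPM + 0.1), two-sided, with trended and robust variance over 17203 genes. Both were tested on simulated data. Ratios per library used a prior count of 0.5, and intervals of ratios of summed counts are exact conditional at 95%. A count of 0 allows 3 counts, or 1.11 to 1.66 CPM in a library. Depth was 1804217 to 2711948 counts. DESeq2 1.42.0, other filters, scalings and limits, and each replicate left out were the alternatives.

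Pairs were named by rule: the 10 with most counts, 6 coding pairs by the lower gene, 6 with most shared bases, up to 4 per list, 5 with the largest ratio in each direction with a lower gene of at least 10, and the 5 most equal with both at 50 or more, 65 in all. Not each is described.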

Additional observations from a re-analysis of the deposited data

Results flagged for a closer look

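Of 68 values with 4 libraries that were looked at, 15 had 1 library far from the other 3, where chance marks about 1 in 20. Ratios here are log2 counts per exon base, plus-strand gene minus minus-strand gene. Replicate 4 stood apart in Arhgdib and Pde6h at 7.42 (others 4.94 to 5.12), in Ftl1 and Gm10252 at 12.06 (9.37 to 9.56), in Eftud2 and Gm26668 at 8.61 (7.03 to 7.08) and in Usp38 and Gm9725 at 9.52 (7.64 to 7.94). It also did so in Eed and E230029C05Rik at 5.11 (3.30 to 3.42), in Mrpl47 and Ndufb5 at -12.48 (-8.22 to -8.03) and in Gm17040 and Cish at -9.75 (-8.48 to -8.39). In all of these the lower gene had its fewest counts in replicate 4: Cish, a suppressor of cytokine signalling, had 27, 32, 33 and 15.

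Replicate 3 stood apart in Srr and Smg6 at -8.22 (-8.75 to -8.69), in Ncor1 and Pigl at 0.46 (-0.09 to -0.03) and in E530011L22Rik and Zfp651 at -10.95 (-12.66 to -12.48), where Zfp651 had 1 count. Replicate 2 did so in Gm26786 and Zfp90 at -7.38 (-9.08 to -8.79), where Zfp90 had 1 count, in Fbxl12 and Ubl5 at 5.00 (4.19 to 4.31) and in Cd160 and Pdzk1 at 6.05 (4.46 to 4.52), where Cd160 had 5 counts.

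The share of all counts in divergent members was 16.3% in replicate 3, against 22.2% to 22.6% in the others. The median share of a pair's counts in its higher gene was 97.3% in replicate 4, against 94.8% to 95.1%.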

How the results depend on the processing

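Under the alternatives, 95 summary values stayed near the reported ones and 20 moved. Only the median log2 difference of noncoding minus coding has a direction. It ran from 5.46 to 5.99 over the limits on shared bases and with each replicate left out. Without dividing by exon length it was 4.43, outside that range. In that setting the noncoding gene was higher in 332 pairs and the coding gene in 58, against 343 and 40. Both counts were among the values that stayed near. The other summary values are counts and percents. With at least 200 shared bases there were 394 pairs that passed the test, 209 with the plus gene and 185 with the minus gene higher, 204 and 18 with the noncoding or coding gene higher, and members held 11.4% of counts. Pairs that share bases with no other gene gave 380, 193, 187, 190 and 14, and 7.39%. These settings hold fewer pairs by construction. With a mean summed count of at least 50, the coding gene was higher in 24. Members under the tested level numbered 499 at 2 TPM, 0 with a mean count of at least 10 and 200 against 1 CPM. Leaving out each replicate in turn gave 151 to 199 there, 705 to 736 pairs that passed, 353 to 370 and 349 to 366 by strand, 337 to 341 and 35 to 45 for noncoding and coding genes, 1035 to 1133 members above 1 TPM, medians of 5.46 to 5.82 on the log2 scale and of 94.99% to 95.8%, and shares of 20.4% to 22.5%. Without the library block (no replicate block), 368 pairs had the plus gene and 362 the minus gene higher. Among named pairs, the direction of Ncor1 and Pigl turned without length, at -2.43. Low counts limit the lower gene: its mean count reached 10 in 368 of 796 tested pairs.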
